A study of Mus musculus with 24 samples.

Results

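Red blood cell genes were examined in mouse embryos with and without zygotic *Zfp57*. The set was a list of 37 gene symbols that covers the embryonic and adult globins, haem synthesis, the red cell membrane and the erythroid transcription factors and receptors. They were matched to the gene names of the deposited table, where 36 of the 37 were found among 34745 genes. All 36 passed the filter on low counts, and 16026 genes were tested in all. *Ahsp*, the alpha globin chaperone, was not matched by symbol and has no value here.

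RNA-seq was performed with whole 129/DBA hybrid embryos at embryonic day 13.5, with 1 library per embryo. ZFP57 is a zinc finger protein that maintains DNA methylation at imprinted regions. The 6 M-Z+ embryos (*Zfp57*-/+) lacked maternal *Zfp57* and carried 1 functional allele, and the 6 M-Z- embryos (*Zfp57*-/-) were maternal-zygotic mutants that lacked both maternal and zygotic *Zfp57*. Embryos with maternal *Zfp57* were not analysed here, so that the loss of maternal *Zfp57* was shared by both groups. Sex, litter and batch are not given in the labels. The p-values set the difference between groups against the spread between these 12 embryos only. Effects of sex, litter or batch cannot be told apart from that of genotype.

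Erythroid cells of the mouse embryo arise in 2 waves. Primitive erythroid cells from the yolk sac circulate first and carry the embryonic globins, whereas definitive erythroid cells form in the fetal liver and carry the adult globins. At this stage both kinds are present, the fetal liver is the main site of red cell production, and the ratio of embryonic to adult globin RNA falls as development proceeds. Haemoglobin is assembled from alpha-type and beta-type globin chains and haem, which is made from glycine and succinyl-CoA in a series of enzymatic steps that end with the insertion of iron.

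Total counts on genes ranged from 12347383 to 19216288 in M-Z+ embryos and from 12005145 to 14617373 in M-Z- embryos. Counts were scaled to a common library size, as CPM, with the TMM factors of edgeR. *Zfp57* itself had 19.1 to 40.8 CPM in M-Z+ embryos and 17.8 to 27.8 CPM in M-Z- embryos, and its count spans the whole gene, so that it does not check the genotype labels. A single library stood apart in a ratio of globin genes. M-Z+ replicate 3 had a different ratio of the paired adult beta globin genes *Hbb-bs* and *Hbb-bt* from the other 11 embryos, and fold changes of the named members that move by over 1.5 times without it are given with and without it. The libraries also differed in how log2 CPM depended on log2 gene length across genes, with a slope from 0.444 to 0.676 in M-Z+ embryos and from 0.54 to 0.678 in M-Z- embryos.

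No erythroid gene was called different between M-Z- and M-Z+ embryos. With the quasi-likelihood test of edgeR, a call required an adjusted p below 0.05 over all tested genes and an absolute log2 fold change above 0.5. Of the 36 members 0 were called, against 13 of 16026 genes (0.0811%). DESeq2 called 0 members as well, and 40 of 19933 genes (0.201%). The log2 fold changes of the members, M-Z- over M-Z+, lay between -0.32 and 0.46, and their adjusted p-values in edgeR between 0.608 and 0.946. At an unadjusted p below 0.05 without a fold limit 6 of 36 members passed, against 6.7% of all genes in either direction. These were *Ppox*, *Car2*, *Klf1*, *Tspan33*, *Uros* and *Fech*, all with lower values in M-Z- embryos, where 3.26% of all genes passed in that direction. With the fold limit added 0 members passed, against 1.54% of all genes. The largest of these 6 differences, -0.32 for *Car2* and *Klf1*, lay within the fold limit.

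The direction of the small differences was nonetheless uneven. Fitted values were lower in M-Z- embryos for 31 of 36 members, against 51.7% of all genes tested. The median log2 fold change of the members was -0.17, against -0.01 over all genes. All 5 members with a higher fitted value are named here: the embryonic globins *Hbb-y*, *Hbb-bh1* and *Hba-x*, the transferrin receptor *Tfrc* and the ankyrin gene *Ank1*. The CPM of the 2 groups overlapped for every one of the 36 members, and also for all but 0.574% of all genes tested. Members come from the same libraries and several pairs of them varied together between embryos, so that their signs are not separate observations. In RNA from whole embryos, fewer erythroid cells and less of an RNA per erythroid cell cannot be told apart.

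**Figure D1:**
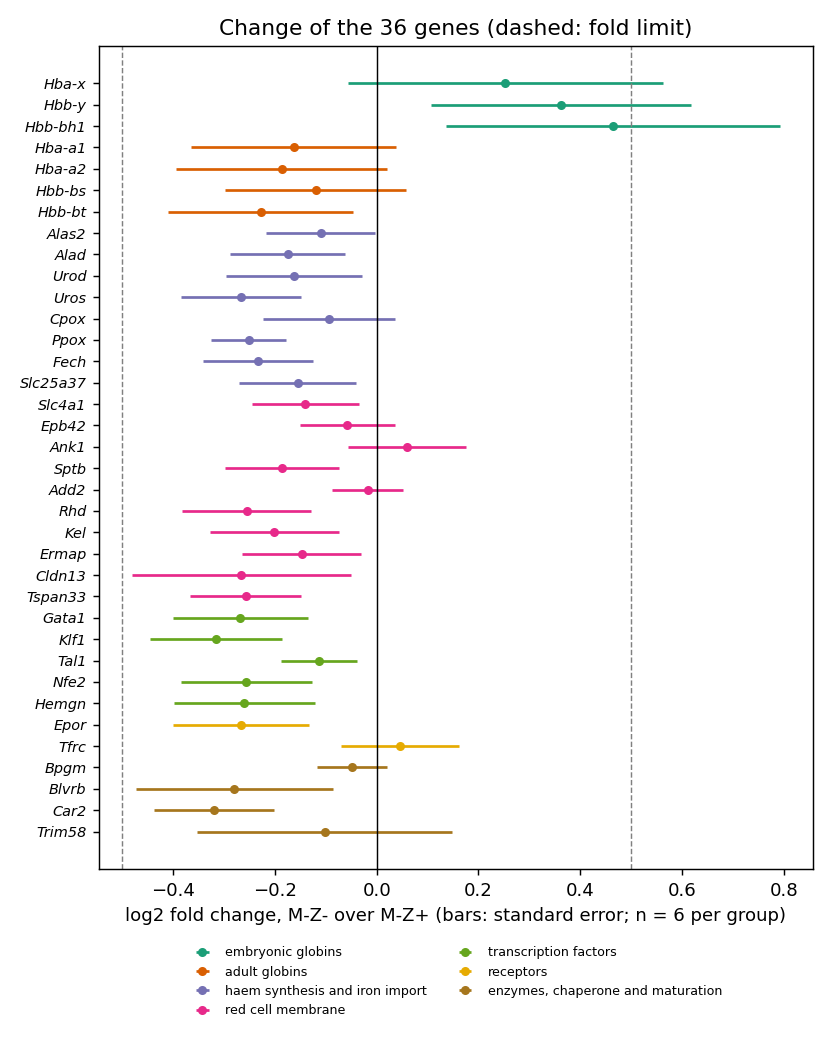
Log2 fold change (M-Z- over M-Z+, horizontal axis) of each of the 36 members from edgeR, with bars of 1 standard error and members grouped by role. The embryonic globins lie to the right of 0, from 0.25 to 0.46, and 31 members lie to the left, none beyond -0.32.

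The embryonic globins were *Hbb-y* and *Hbb-bh1*, which encode the embryonic beta-type chains epsilon-y and beta-h1, and *Hba-x*, which encodes the embryonic alpha-type chain zeta. Levels between genes were compared per length, as TPM. These are counts divided by the gene length that the deposited FPKM values imply and scaled to a common total. For some genes that length exceeds the span of the gene's own position, so that levels and ranks in TPM are approximate. *Hbb-y* had a mean of 21210 TPM over the 12 embryos, which ranked 2 among all genes of the table. *Hba-x* had 1820 TPM and *Hbb-bh1* 617.5 TPM. Embryonic globin RNA was thus among the most abundant in the whole embryo, with *Hbb-y* far ahead of its embryonic partners.

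*Hbb-y* had between 1660 and 4978 CPM in M-Z+ embryos, with a median of 3931 CPM. In M-Z- embryos it had between 2840 and 6089 CPM, with a median of 4709 CPM. The groups overlapped, and the lowest 2 embryos were M-Z+ replicate 3 and M-Z+ replicate 2, at 1660 and 2068 CPM. Its log2 fold change was 0.36 with a standard error of 0.26 and an adjusted p of 0.756 in edgeR, and the exact permutation test of mean CPM, 2-sided over all divisions of the 12 embryos into groups of 6, gave p = 0.19.

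*Hbb-bh1* had between 31.2 and 133.2 CPM in M-Z+ embryos, with a median of 103 CPM, and between 67.9 and 169.7 CPM in M-Z- embryos, with a median of 131.4 CPM. It had the largest fitted difference of all members, with a log2 fold change of 0.46 and a standard error of 0.33. The adjusted p in edgeR was 0.756. *Hba-x* had between 194.3 and 714.2 CPM in M-Z+ embryos and between 320.8 and 718.4 CPM in M-Z- embryos, with medians of 459 and 550.8 CPM. Its log2 fold change was 0.25 with a standard error of 0.31 and an adjusted p of 0.824 in edgeR. The same pair of M-Z+ embryos, replicates 2 and 3, was lowest for all 3 embryonic globins. When M-Z+ replicate 3 was left out, the fold changes on the log2 scale were 0.22 for *Hbb-y*, 0.29 for *Hbb-bh1* and 0.10 for *Hba-x*, and without M-Z+ replicate 2 that of *Hba-x* was 0.09. With 2 surrogate variables as covariates they were larger, at 0.61 for *Hbb-y*, 0.74 for *Hbb-bh1* and 0.63 for *Hba-x*, with adjusted p-values of 0.411, 0.437 and 0.451 in edgeR.

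The adult globins were *Hba-a1* and *Hba-a2*, which encode the same adult alpha chain, and *Hbb-bs* and *Hbb-bt*, which encode the adult beta chains of the reference strain C57BL/6. The strains 129 and DBA carry another haplotype of the adult beta globin genes than that reference, and both gene pairs are near-identical copies, so that the division of reads within a pair is uncertain. *Hbb-bs* had a mean of 5190 TPM and *Hba-a1* 4971 TPM, followed by *Hbb-bt* with 1531 TPM and *Hba-a2* with 1091 TPM. The implied lengths of *Hbb-bs*, *Hba-a1* and *Hba-a2*, at 1734, 1193 and 1048 bases, exceeded the spans of their positions, so that their TPM may be too low. Mean CPM of *Hbb-y* was 3472 in M-Z+ and 4464 in M-Z- embryos, against 2663 and 2450 for *Hbb-bs*. Each adult globin had a lower fitted value in M-Z- embryos, by less than the spread between embryos.

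*Hbb-bs* had between 1793 and 3531 CPM in M-Z+ embryos, with a median of 2594 CPM. In M-Z- embryos it had between 1735 and 3217 CPM, with a median of 2462 CPM. *Hbb-bs* had a log2 fold change of -0.12 with a standard error of 0.18 and an adjusted p of 0.860 in edgeR. *Hba-a1* ranged from 1221 to 2687 CPM in M-Z+ embryos and from 1034 to 2230 CPM in M-Z- embryos, with medians of 1728 and 1661 CPM. *Hba-a1* had a log2 fold change of -0.16 with a standard error of 0.20 and an adjusted p of 0.828 in edgeR. M-Z+ replicate 4 was highest for both genes and M-Z- replicate 6 lowest. When M-Z+ replicate 4 was left out, *Hbb-bs* was at -0.03, *Hba-a1* at -0.01 and *Hba-a2* at -0.04 on the log2 scale, and *Hbb-bs* was at -0.21 when M-Z+ replicate 3 was left out. Without M-Z- replicate 6, *Hbb-bs* was at -0.05, *Hba-a1* at -0.08, *Hba-a2* at -0.09 and *Hbb-bt* at -0.14.

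*Hbb-bt* had between 242.8 and 413.1 CPM in M-Z+ embryos, with a median of 325.7 CPM, and between 188.3 and 414.9 CPM in M-Z- embryos, with a median of 275.3 CPM. *Hba-a2* ranged from 236 to 517.3 CPM and from 189.8 to 425 CPM, with medians of 329.6 and 322.9 CPM. Their log2 fold changes were -0.23 and -0.19, with standard errors of 0.18 and 0.21 and adjusted p-values of 0.763 and 0.806 in edgeR. When this dependence on gene length was added to the fit, the log2 fold changes of *Hba-a1*, *Hba-a2* and *Hbb-bs* turned positive, at 0.11, 0.09 and 0.05, and that of *Hbb-bt* was -0.04. In the same fit the embryonic globins kept their sign, at 0.44 for *Hbb-y*, 0.40 for *Hbb-bh1* and 0.38 for *Hba-x*.

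**Figure D2:**
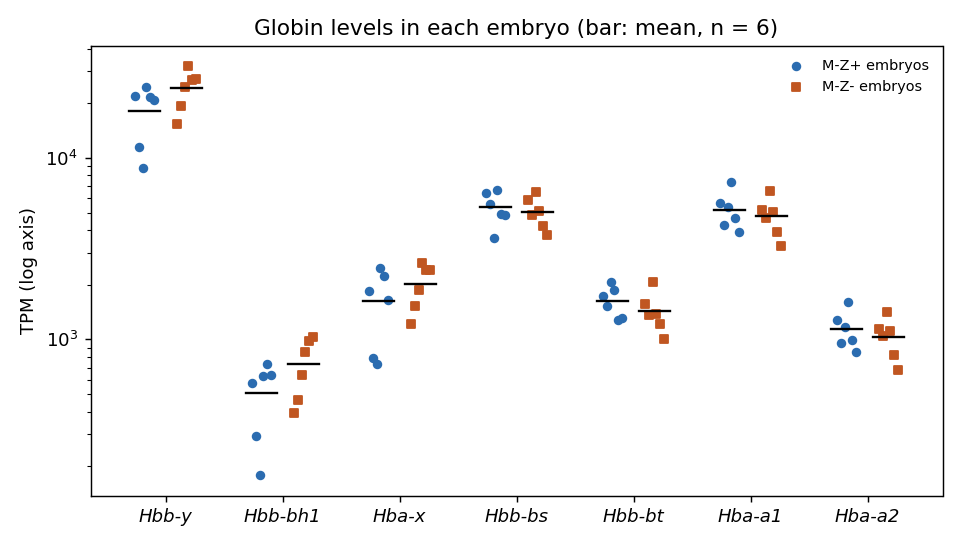
Level of the 7 globin genes in TPM on a log axis, with 1 point per embryo and a bar at the mean of each group of 6. M-Z+ and M-Z- embryos overlap for every globin. Over all embryos the embryonic globins spread over a wider range than the adult ones, which is clearer among M-Z+ than among M-Z- embryos.

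The promoters of 5 globin genes are printed because the fitted differences of the embryonic and the adult globins had opposite signs. Each is the stretch of 150 bases before the RefSeq start on GRCm38.p6, 5′ to 3′ on the coding strand, with matches to the searched motifs in capitals. *Hbb-y* lies at chr7:103853208-103853357 on the minus strand, *Hba-x* at chr11:32276450-32276599 on the plus strand, *Hbb-bs* at chr7:103827929-103828078 on the minus strand, *Hbb-bt* at chr7:103813924-103814073 on the minus strand and *Hba-a1* at chr11:32283522-32283671 on the plus strand.
Hbb-y: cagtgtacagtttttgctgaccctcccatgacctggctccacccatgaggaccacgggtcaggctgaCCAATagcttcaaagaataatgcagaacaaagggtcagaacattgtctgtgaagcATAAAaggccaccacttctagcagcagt
Hba-x: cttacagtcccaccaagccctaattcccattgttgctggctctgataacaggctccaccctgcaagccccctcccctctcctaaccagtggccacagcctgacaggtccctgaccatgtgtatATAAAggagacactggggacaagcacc
Hbb-bs: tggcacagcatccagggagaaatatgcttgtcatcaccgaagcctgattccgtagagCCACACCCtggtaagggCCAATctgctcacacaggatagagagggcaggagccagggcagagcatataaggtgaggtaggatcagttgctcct
Hbb-bt: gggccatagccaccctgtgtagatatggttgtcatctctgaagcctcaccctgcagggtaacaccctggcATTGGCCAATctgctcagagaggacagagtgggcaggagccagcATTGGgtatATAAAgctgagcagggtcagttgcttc
Hba-a1: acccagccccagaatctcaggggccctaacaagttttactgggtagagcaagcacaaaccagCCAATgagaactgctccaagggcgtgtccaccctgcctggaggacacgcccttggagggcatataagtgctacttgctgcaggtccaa
The motifs searched on both strands were AGATAA, a form of the GATA site, CCACACCC, a form of the site of KLF1, CCAAT, the CCAAT box, and ATAAA, a part of the TATA box; a run AGATAAA would count for the first and the last. ATAAA was found in *Hbb-y*, *Hba-x* and *Hbb-bt*, whereas *Hbb-bs* and *Hba-a1* have the letters atataag at that place. CCAAT was found in each printed promoter other than that of *Hba-x*. CCACACCC was found in *Hbb-bs*. In the longer window of 250 bases before the start, 33 promoters of 28 members were matched in the RefSeq table. AGATAA was in 7 of these 33 and in 9.99% of all 32851 promoters, CCACACCC in 1 and 3.20%, CCAAT in 16 and 33.8%, and ATAAA in 14 and 37.3%. *Hba-a1* and *Hba-a2* share a run of 147 bases in the stretch of 150, and *Hbb-bs* and *Hbb-bt* share a longest run of 14 bases. These matches describe letters only.

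As an index of stage, the counts of the embryonic beta-type globins (*Hbb-y* and *Hbb-bh1*) were divided by those of the adult beta-type globins (*Hbb-bs* and *Hbb-bt*) in each embryo. The index ranged from 0.718 to 1.56 in M-Z+ embryos, with a median of 1.25. In M-Z- embryos it ranged from 0.915 to 2.57, with a median of 1.81. M-Z- replicates 4, 5 and 6 had the highest values, at 2.22, 2.27 and 2.57, whereas M-Z- replicates 1, 2 and 3 lay within the range of the M-Z+ embryos. On the log2 scale the mean was 0.17 ± 0.49 (SD, n = 6) in M-Z+ embryos and 0.74 ± 0.58 (SD, n = 6) in M-Z- embryos, a difference of 0.57 that is similar to the SD within each group. The index combines genes chosen with results known, and no p is given for it.

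The alpha-type index, *Hba-x* over *Hba-a1* and *Hba-a2*, ordered the embryos in much the same way. It ranged from 0.09 to 0.317 in M-Z+ embryos and from 0.155 to 0.494 in M-Z- embryos, with medians of 0.220 and 0.281. The 3 highest embryos were again M-Z- replicates 4, 5 and 6, at 0.347, 0.413 and 0.494. The 3 lowest embryos of both indices were M-Z+ replicate 2, M-Z+ replicate 3 and M-Z- replicate 1. The mean log2 value was -2.40 ± 0.71 (SD, n = 6) in M-Z+ embryos and -1.86 ± 0.68 (SD, n = 6) in M-Z- embryos, a difference of 0.54, which was 0.32 without M-Z+ replicate 3 and 0.37 without M-Z- replicate 6. Both genotypes thus spanned a wider range of this index among their own embryos than the difference between their means.

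**Figure D3:**
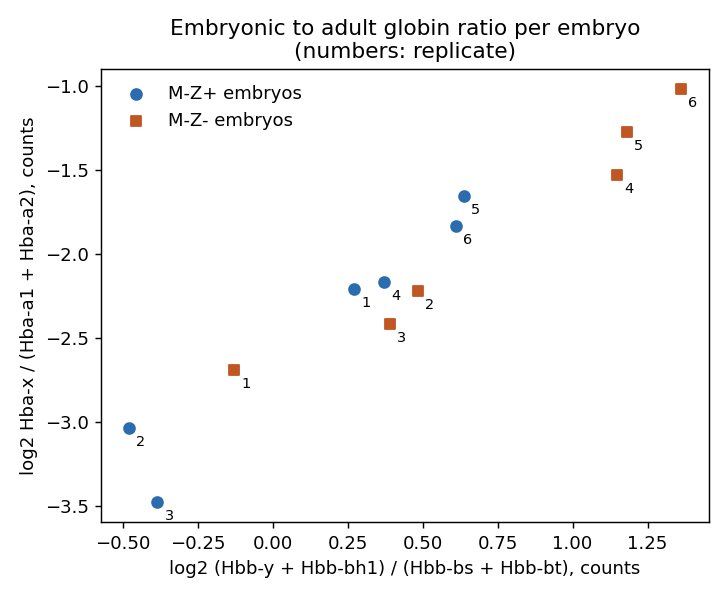
Alpha-type index (vertical axis) against beta-type index (horizontal axis), both as log2 ratios of embryonic to adult globin counts, with 1 numbered point per embryo. M-Z- replicates 4, 5 and 6 are highest in both, and the other M-Z- embryos lie among the M-Z+ embryos.

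The 7 globins together took 0.626% to 1.31% of all counts in M-Z+ embryos and 0.849% to 1.18% in M-Z- embryos. Embryonic globins alone took 0.403 ± 0.158% (SD, n = 6) of the counts in M-Z+ embryos and 0.506 ± 0.126% (SD, n = 6) in M-Z- embryos. Adult globins took 0.516 ± 0.122% (SD, n = 6) and 0.459 ± 0.114% (SD, n = 6). The groups overlapped in each of these shares. M-Z- replicates 5 and 6, with the highest indices, also had 2 of the 3 highest gene length slopes, and the part of that slope in the indices was not tested.

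The ratios between related globin genes varied to different degrees. *Hba-a1* had 4.97 to 5.45 times the counts of *Hba-a2* in all 12 embryos. *Hbb-y* had 28.1 to 53.2 times the counts of *Hbb-bh1*. *Hbb-bs* had 7.75 to 9.49 times the counts of *Hbb-bt* in 11 embryos but 4.34 times in M-Z+ replicate 3. In that embryo *Hbb-bs* was the lowest of the M-Z+ group and *Hbb-bt* the highest, while their sum of 2207 CPM lay between the 1923 and 3937 CPM of the others. The cause of this ratio was not tested. The difference of the mean log2 ratio of *Hbb-bs* to *Hbb-bt*, M-Z- minus M-Z+, was 0.13 with this embryo and -0.05 without it.

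**Figure D4:**
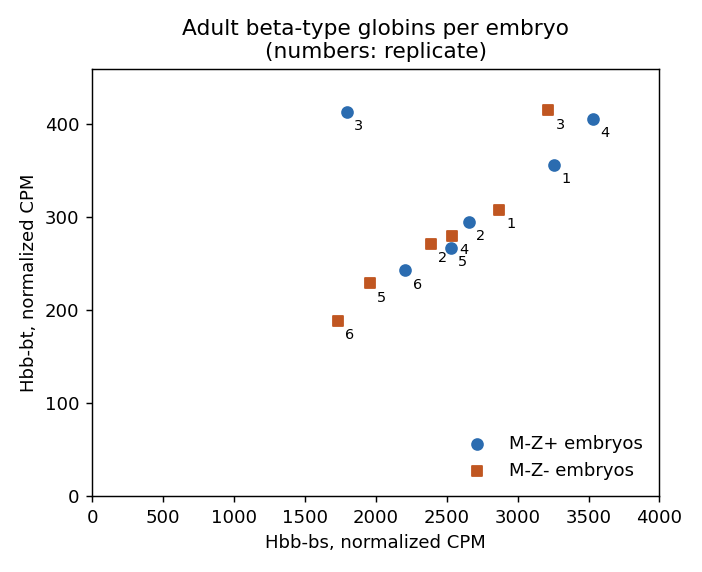
CPM of *Hbb-bt* (vertical axis) against CPM of *Hbb-bs* (horizontal axis), with 1 point per embryo. In 11 embryos *Hbb-bs* has 7.75 to 9.49 times the counts of *Hbb-bt*, and M-Z+ replicate 3 lies above them at 4.34 times.

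The genes of haem synthesis and iron import all had lower fitted values in M-Z- embryos, with a median log2 fold change of -0.17 over 8 genes, and 0 of 8 were called. *Ppox*, which encodes the protoporphyrinogen oxidase that acts just before iron insertion, had the smallest p of all members. It had between 49.1 and 57.3 CPM in M-Z+ embryos, with a median of 52.7 CPM, and between 39.7 and 51.0 CPM in M-Z- embryos, with a median of 44.4 CPM. Most M-Z- embryos lay below all M-Z+ embryos, and M-Z- replicate 5 at 51.0 CPM did not. *Ppox* had a log2 fold change of -0.25 with a standard error of 0.07, with an adjusted p of 0.608 in edgeR and an exact permutation p of 0.00649 before adjustment. The gene overlaps *B4galt3*, and reads of overlapping genes can be divided between them.

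*Uros*, the uroporphyrinogen synthase, had between 28.4 and 38.5 CPM in M-Z+ embryos, with a median of 30.5 CPM. In M-Z- embryos it had between 20.2 and 32.0 CPM, with a median of 25.3 CPM. The fold change of *Uros* on the log2 scale was -0.27 with a standard error of 0.12, with an adjusted p of 0.744 in edgeR, and -0.20 without M-Z+ replicate 3, which was the highest. It overlaps *Bccip*. *Fech*, the ferrochelatase that inserts iron to form haem, ranged from 201.7 to 288.2 CPM and from 166.1 to 235.3 CPM, with medians of 231.7 and 200.1 CPM. The log2 fold change of *Fech* was -0.23 with a standard error of 0.11 and an adjusted p of 0.746 in edgeR.

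*Alas2*, the erythroid enzyme of the first and limiting step of haem synthesis, differed less. It had between 221.7 and 310.3 CPM in M-Z+ embryos, with a median of 256.1 CPM, and between 205.1 and 289 CPM in M-Z- embryos, with a median of 241.7 CPM. The log2 fold change of -0.11 with a standard error of 0.11 had an adjusted p of 0.785 in edgeR, and the gene overlaps *Apex2*. The value was -0.07 when M-Z+ replicate 3 was left out, -0.06 when M-Z+ replicate 4 was, and -0.01 when gene length was added to the fit. The other 4 genes of the group, *Alad*, *Urod*, *Cpox* and the mitochondrial iron importer gene *Slc25a37*, had log2 fold changes from -0.18 to -0.09, and each had overlapping groups. All 8 genes of the pathway thus had the same sign, from -0.27 to -0.09.

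Of the 10 red cell membrane genes 9 had lower fitted values in M-Z- embryos, with a median log2 fold change of -0.17, and 0 of 10 were called. *Slc4a1*, the anion exchanger band 3 and the most abundant protein of the red cell membrane, had between 685.2 and 1034 CPM in M-Z+ embryos, with a median of 792.6 CPM. In M-Z- embryos it had between 641.3 and 883.4 CPM, with a median of 714.3 CPM. M-Z+ replicate 3 was highest and M-Z- replicate 6 lowest. For *Slc4a1* the log2 fold change was -0.14 with a standard error of 0.11 and an adjusted p of 0.757 in edgeR, and it was -0.06 without M-Z+ replicate 3.

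*Tspan33*, a tetraspanin of erythroid progenitors, ranged from 50.6 to 69.0 CPM in M-Z+ embryos and from 37.5 to 57.4 CPM in M-Z- embryos, with medians of 55.9 and 48.2 CPM. For *Tspan33* the log2 fold change was -0.26 with a standard error of 0.11 and an adjusted p of 0.744 in edgeR. *Rhd*, the Rh blood group antigen, ranged from 53.8 to 78.5 CPM and from 41.7 to 65.3 CPM, with medians of 58.2 and 51.4 CPM. For *Rhd* the log2 fold change was -0.26 with a standard error of 0.13 and an adjusted p of 0.749 in edgeR. Genes of the membrane skeleton were closer to 0, at -0.06 for the protein 4.2 gene *Epb42*, -0.02 for the adducin gene *Add2* and 0.06 for *Ank1*, whereas the beta spectrin gene *Sptb* was at -0.19. *Kel*, *Ermap* and *Cldn13* lay between -0.27 and -0.15.

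All 5 erythroid transcription factors had lower fitted values in M-Z- embryos, with a median log2 fold change of -0.26, and 0 of 5 were called. *Klf1*, which activates adult beta globin and many membrane and haem genes, had between 53.7 and 82.5 CPM in M-Z+ embryos, with a median of 68.6 CPM. In M-Z- embryos it had between 41.4 and 69.2 CPM, with a median of 55.7 CPM. M-Z+ replicate 6, at 53.7 CPM, lay among the M-Z- embryos, and M-Z- replicate 3, at 69.2 CPM, lay among the M-Z+ embryos. For *Klf1* the log2 fold change was -0.32 with a standard error of 0.13, with an adjusted p of 0.744 in edgeR and an exact permutation p of 0.0519.

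*Gata1*, the master regulator of erythroid genes, ranged from 30.5 to 49.8 CPM in M-Z+ embryos and from 25.9 to 39.7 CPM in M-Z- embryos, with medians of 39.6 and 35.3 CPM. Its log2 fold change was -0.27 with a standard error of 0.13 and an adjusted p of 0.749 in edgeR. *Nfe2* and *Hemgn* each had -0.26, and *Tal1*, which also acts in endothelium and nervous tissue, had -0.11. Over all alternative fits the lowest adjusted p of any member was that of *Klf1*, 0.185 in edgeR with 2 surrogate variables as covariates.

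The 2 receptors differed in direction without either passing the test. *Epor*, the erythropoietin receptor that keeps erythroid progenitors alive, ranged from 25.5 to 37.8 CPM in M-Z+ embryos and from 18.5 to 30.1 CPM in M-Z- embryos, with medians of 28.5 and 24.4 CPM. Its log2 fold change was -0.27 with a standard error of 0.13 and an adjusted p of 0.749 in edgeR. *Tfrc*, the transferrin receptor, which many dividing cells use, ranged from 240.7 to 392.4 CPM and from 292.7 to 372.4 CPM, with medians of 332 and 331.2 CPM. Its log2 fold change was 0.05 with a standard error of 0.12, and it was 0.08 without M-Z+ replicate 3 and changed sign in some fits.

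Among the enzymes and maturation genes, *Car2*, the carbonic anhydrase of the red cell, had the largest fitted difference. It had between 270.8 and 430.7 CPM in M-Z+ embryos, with a median of 302.1 CPM, and between 215.2 and 302.6 CPM in M-Z- embryos, with a median of 258.5 CPM. M-Z+ replicate 3 stood highest, and the groups overlapped between 270.8 and 302.6 CPM. For *Car2* the log2 fold change was -0.32 with a standard error of 0.12, with an adjusted p of 0.740 in edgeR and an exact permutation p of 0.026, and it was -0.22 without M-Z+ replicate 3. *Bpgm*, *Blvrb* and *Trim58* had log2 fold changes from -0.28 to -0.05. *Trim58*, a ubiquitin ligase of late erythroblasts, was the member with the lowest level per length, at 8.59 TPM.

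**Figure D5:**
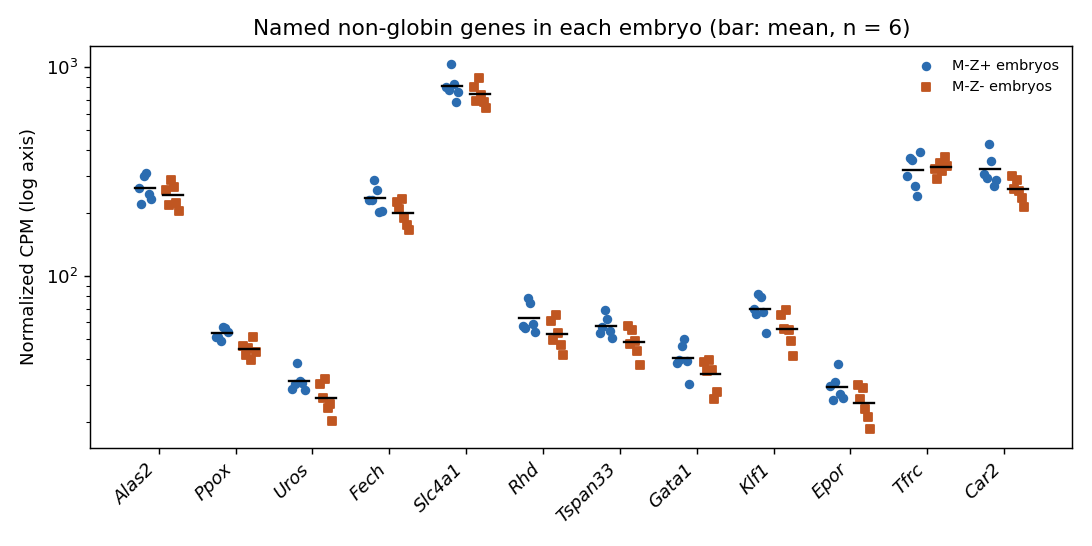
CPM of the named members that are not globins on a log axis, with 1 point per embryo and a bar at the mean of each group of 6. The M-Z- mean is lower than the M-Z+ mean for each gene other than *Tfrc*, and the groups overlap in every case.

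Summed over the 29 members that are not globins, the M-Z+ embryos had 4097 to 5627 CPM and the M-Z- embryos 3633 to 4830 CPM. M-Z+ replicate 3 was the highest embryo for 14 of the 36 members and M-Z+ replicate 4 for 11. M-Z- replicate 6 was the lowest for 23. Single embryos at both ends of the range therefore recur from gene to gene.

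The members varied between embryos to different degrees. The highest embryo had 3.67 to 5.44 times the CPM of the lowest for the embryonic globins, 2.04 to 2.73 times for the adult globins, and a median of 1.76 times for the other members. The median over 9209 tested genes with at least 20 CPM was 1.52 times. Over all 12 embryos the embryonic globins thus had a wider range than the adult globins. Within M-Z+ embryos the SD of log2 CPM was 0.64 to 0.83 for embryonic and 0.32 to 0.40 for adult globins. Within M-Z- embryos it was 0.38 to 0.56 and 0.33 to 0.42, so that the globins of both kinds overlapped in spread there.

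Some members varied together between embryos. In all, 6 pairs were compared over the 12 embryos on log2 CPM, with permutation p-values adjusted over the 6. *Hbb-y* and *Hba-x* had a Pearson r of 0.974 (adjusted permutation p = 6e-05) and a Spearman rho of 0.923, with r of 0.979 within M-Z+ and 0.976 within M-Z- embryos. *Hbb-bs* and *Hba-a1* had r of 0.779 (adjusted permutation p = 0.00457) and rho of 0.734, with 0.580 within M-Z+ and 0.980 within M-Z- embryos. For an embryonic with an adult gene, *Hbb-y* and *Hbb-bs* had r of 0.253 (adjusted permutation p = 0.430) and rho of 0.182, and r of -0.05 without the 2 embryos farthest from the median. Within M-Z+ embryos this pair had r of 0.732 and within M-Z- embryos -0.284, with exact permutation p-values of 0.117 and 0.604. With 6 embryos each, these values leave the relation within a genotype unsettled, and the difference between them was not tested.

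*Slc4a1* followed *Alas2* with r of 0.805 (adjusted permutation p = 0.00312) and rho of 0.790, and r was 0.712 without the 2 farthest embryos. The relation of *Gata1* to *Slc4a1* had r of 0.722 (adjusted permutation p = 0.00962) and rho of 0.783, and r of 0.589 without the 2 farthest. Within M-Z+ embryos neither pair passed on its own, with exact permutation p-values of 0.151 and 0.271, and within M-Z- embryos they had exact permutation p-values of 0.00833 and 0.0528. *Slc4a1* also followed *Alb*, the albumin gene of hepatocytes, with r of 0.812 (adjusted permutation p = 0.00312) and rho of 0.909. All of these pairs share libraries, and liver and erythroid RNA came from the same whole embryos.

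Other genes of the erythroid programme were less uneven in direction when pooled. A list of 63 further genes of the membrane, haem and iron handling, transcription and signalling was set beside the members, of which 60 were tested. Fitted values were lower in M-Z- embryos for 34 of 60, against 51.7% of all genes tested. The median log2 fold change of this list was -0.03, and 0 were called. By role, 9 of 14 membrane genes and 12 of 17 haem and iron genes were lower. Among transcription regulators 8 of 16 were lower, and among receptors, signalling and maturation genes 5 of 13. Differences between these roles were not tested. At an unadjusted p below 0.05 in edgeR, 7 passed, 6 of them lower, where 6.70% of all genes passed in either direction. *Rhag*, the Rh-associated glycoprotein, had a log2 fold change of -0.33 and *Steap3*, the ferrireductase that lets transferrin iron into erythroid cells, had -0.35. *Mfsd2b*, a sphingosine-1-phosphate exporter of red cells, had -0.26 and *Cd24a* -0.18.

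Known repressors of embryonic globin genes did not pass the test. *Bcl11a* had a log2 fold change of 0.04 and *Sox6* 0.15, with adjusted p-values of 0.891 and 0.763 in edgeR. *Zbtb7a*, another such repressor, which was added here after its values were seen, had -0.47 with a standard error of 0.21, an unadjusted p of 0.0391 and an adjusted p of 0.744 in edgeR. It ranged from 43.6 to 58.1 CPM in M-Z+ embryos and from 16.8 to 48.2 CPM in M-Z- embryos, and M-Z- replicate 4 was lowest. *Myb*, a regulator of definitive progenitors, had 0.13. *Add1*, an adducin gene that is expressed in many tissues, had the smallest p of this list, with a log2 fold change of 0.47, a standard error of 0.14 and an adjusted p of 0.589 in edgeR. It ranged from 177.4 to 298.6 CPM in M-Z+ embryos and from 207.9 to 347.6 CPM in M-Z- embryos.

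Markers of cell types that share the fetal liver and blood were summed in the same embryos, and 0 markers of any list were called. Of all genes tested, 51.7% had lower fitted values in M-Z- embryos and 6.7% passed an unadjusted p below 0.05 in edgeR, in either direction. The 10 hepatocyte genes summed to 3837 to 7697 CPM in M-Z+ embryos and 2894 to 7208 CPM in M-Z- embryos, with 8 of 10 lower in M-Z- embryos and a median log2 fold change of -0.21. The 10 megakaryocyte genes had 89.7 to 133.1 CPM and 70.7 to 107.2 CPM, with 8 of 10 lower and a median of -0.20, and 2 passed an unadjusted p below 0.05 in edgeR. The macrophage genes had 160.2 to 223.1 CPM and 194.1 to 271.2 CPM, with 0 of 9 tested genes lower and a median of 0.20, 1 gene passed an unadjusted p, and *Vsig4* was at 0 in at least 1 embryo. The 10 endothelial genes had 488.3 to 555.4 CPM and 526.8 to 612.7 CPM, with 3 of 10 lower and a median of 0.08, and 3 passed an unadjusted p. The neutrophil and mast cell genes had 30.1 to 58.2 CPM and 26.8 to 52.0 CPM, with 6 of 7 tested genes lower and a median of -0.25, and *Elane*, *Mcpt4* and *Tpsb2* were at 0 in at least 1 embryo. Hepatocyte, megakaryocyte and neutrophil markers thus leaned the same way as the erythroid genes, whereas macrophage and endothelial markers leaned the other way, and their part in the erythroid differences was not tested.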

How the data were processed

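RNA-seq of 12 whole embryos was used, 6 M-Z+ and 6 M-Z-, grouped by the genotype in the sample labels. The 12 embryos with bisulfite sequencing were not analysed here. As measurements the authors deposited unnormalized counts of reads on each gene and FPKM values. Of the FPKM values above 0.01, 100% equalled, to within 0.1%, the values that these counts give with 1 length for each gene. Counts were used for every test, and TPM was computed with the lengths that the FPKM values imply. The processing notes of the submitters name HISAT2 2.0.4, Trim Galore 0.4.1, Bismark 0.15.0, Bowtie2 2.2.9 and the build mm10, without a role or order for each. Which program counted the reads, with which annotation and strand setting, is not given in the sources used here, so that reads of overlapping or near-identical genes could have been divided between them. The RNA-seq methods of the paper name another build, and its text does not tie the embryos they describe to these libraries.

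Fits were made in R 4.3.3 by edgeR 4.0.16 (TMM, filterByExpr, glmQLFit and glmQLFTest), DESeq2 1.42.0 and sva 3.50.0, and summaries in Python 3.11.15 with pandas 2.3.3 and scipy 1.17.1. Adjusted p-values are Benjamini-Hochberg values over all 16026 tested genes. Standard errors were derived from the log2 fold change and its quasi-likelihood F (fold change over the root of F). Single members were also compared by the exact permutation test of mean CPM, which cannot give a p below 0.0022. Relations between members used log2 (CPM + 0.1) and 100000 resamples. The fits were tested on simulated counts with 200 changed genes. Depth ranged from 12005145 to 19216288 counts per library. Date-like symbols, of which there were 27, were not used as gene names.

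The members and the gene lists were chosen with earlier results of these data known. Members named in full are the 7 globins, *Alas2*, *Slc4a1*, *Gata1*, *Klf1*, *Epor*, *Tfrc* and the 6 other members with the smallest p. Of the list of 63 further erythroid genes, *Bcl11a*, *Sox6*, *Myb* and 5 others with the smallest p are named, and 3 that the rule also named are not reported here. All other members appear with their fold change or within a range. Promoters were taken from RefSeq on GRCm38.p6, whose gene positions overlapped those of the table for all 36 members, and the promoter of *Hbb-bh1* was not in that table. Marker lists covered hepatocytes, macrophages, megakaryocytes, endothelium, and neutrophils and mast cells.

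The alternatives were DESeq2, RLE scaling, library sizes without globins, other filters on low counts, a replicate block, surrogate variables, the gene length slope of each library, other thresholds, TPM, single globins left out, and each embryo left out in turn. The threshold of an unadjusted p without a fold limit, the counts of members by direction and the *Hbb-bs* to *Hbb-bt* ratio without single embryos were added after the data were seen.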

Additional observations from a re-analysis of the deposited data

Results flagged for a closer look

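A total of 68 groups of 6 embryos were searched for a single embryo far from the rest of its group, in the named genes and the globin ratios. Chance alone would flag about 1 in 20 of such groups, or 3.4, and 3 were found. *Uros*, the uroporphyrinogen synthase, had 38.51 CPM in M-Z+ replicate 3, where the other M-Z+ embryos had 28.39 to 31.6 CPM. The adducin gene *Add1* had 298.6 CPM in M-Z+ replicate 6, where the others had 177.4 to 215.9 CPM. The log2 ratio of *Hbb-bs* to *Hbb-bt* was 2.118 in M-Z+ replicate 3, where the others had 3.12 to 3.247. The last has the widest gap of the 3, at 0.888 of the range of the group, against 0.683 for each of the genes. *Add1* in M-Z- embryos ranged from 207.9 to 347.6 CPM, so that the high M-Z+ embryo lies within the range of the mutants.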

How the results depend on the processing

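The count of members called stayed at 0 in edgeR under every alternative with an adjusted p or with the fold limit and in DESeq2, and so did that of the other erythroid genes. At an unadjusted p without a fold limit the counts were 6 members and 7 other erythroid genes. The 13 calls over all genes became 40 in DESeq2, 21 with the replicate block, 24 with surrogate variables, 23 with the gene length slope and 247 at an unadjusted p with the fold limit, and 11 to 15 when single embryos were left out. The causes were not tested. Whether embryos with the same replicate number share a litter or batch is not given in the labels. Their correlations ranged from 0.0352 to 0.632, the pair of number 6 alone correlated best with its own number, and the numbers were not used as pairs, and under the replicate block 0 members were called and 31 were lower in M-Z- embryos. Members with lower values numbered 33 with surrogate variables, 29 with the gene length slope and 29 to 33 without single embryos, with a median log2 fold change of -0.09 under the slope and of -0.25 to -0.13 without single embryos. Of 540 alternative values for 27 named genes 531 kept their sign. The other 9 belong to 5 genes: with the gene length slope *Hba-a1* (0.11), *Hba-a2* (0.0896), *Hbb-bs* (0.0466), *Tfrc* (-0.0475) and *Bcl11a* (-0.0479), with surrogate variables *Tfrc* (-0.0233), and without single embryos *Tfrc* (-0.0302 to 0.10) and *Bcl11a* (-0.000277 to 0.0847). The share of counts from the 7 globins, M-Z- minus M-Z+, was 0.045 percentage points, -0.013 without M-Z+ replicate 3 and up to 0.12 without M-Z+ replicate 4, and 0.559 points in TPM. The beta-type index differed by 0.44 to 0.74 and the alpha-type index by 0.32 to 0.70 on the log2 scale without single embryos. No member reached the fold limit in the comparison without covariates, and none passed the adjusted p there either. The lowest adjusted p of any member in that comparison was 0.608 in edgeR, and 0 members were called with no fold limit. The standard errors of the members were 0.07 to 0.33.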
